A study of Rattus norvegicus with 8 samples.

Results

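Imprinted genes are transcribed mainly from the allele of a single parent, and many of them set the growth of the fetus. Paternally expressed members such as Dlk1, Peg3, Mest, Plagl1, Snrpn and Ndn are silenced on the maternal allele, Cdkn1c is expressed from the maternal allele, and Grb10 and Gnas use different alleles in different tissues or transcripts. Methylated control regions, read in part by the zinc finger protein ZFP57, keep these states through development. Here 9 such genes were followed in fetal rat testes exposed to mono-(2-ethylhexyl) phthalate (MEHP), the active metabolite of a common plasticizer: Cdkn1c, Plagl1, Ndn, Gnas, Dlk1, Snrpn, Peg3, Mest and Grb10. They were chosen by the gene name printed on the array, which gave 11 of 41012 probes and 6 of the 9 genes, among 18385 gene names on the array. No probe carried the names Peg3, Mest or Grb10, and these 3 genes were not analysed here.

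Sprague-Dawley rat fetal testes were explanted before birth, on the same gestational day, and cultured for 72 h with dimethyl sulfoxide vehicle, 1 µM MEHP or 10 µM MEHP. RNA of 1 testis at 1 µM and of 3 testes at 10 µM, each a whole single testis, was hybridized on Agilent Whole Rat Genome arrays against RNA pooled from 3 vehicle testes. Each testis was hybridized on 2 arrays, a first hybridization and a repeat, which gave 8 arrays. The pool is 1 control sample, so the tests leave out the spread between control testes. The p-values cover only the spread between these MEHP testes, which limma shrinks toward a value shared by all tested probes. In whole explants, fewer cells of a type and less RNA per cell cannot be told apart.

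All ratios are log2 of MEHP over vehicle, so 1 stands for a doubling and −1 for a halving. Their direction is the likely one: the labels put MEHP on the green dye (Cy3) on all 8 arrays, the methods describe a dye exchange within each pair, and MEHP was taken as green in the first hybridization and red in the repeat. If this were the other way round, every sign below would turn. Over 3668 probes well above background on all 8 arrays, the unturned red over green ratios of the 2 arrays of a testis correlated with Pearson r of −0.52 at 1 µM and of −0.75, −0.50 and −0.82 in testes 1, 2 and 3 at 10 µM. Over all probes these r were 0.27, 0.03, −0.55 and −0.09, and genes are not independent replicates. Testis 2 at 10 µM stood apart. In its MEHP channel only 0.249% and 1.54% of the spots exceeded background clearly, against 7.8% to 29.8% on the other 6 arrays. The median ratio of all tested probes was −1.13 for testis 2, compared with 0.09 for testis 1 and −0.20 for testis 3. The values of the tested probes at 10 µM are therefore also given without testis 2. In that fit 17.3% of all 9913 tested probes passed, 739 of them higher and 976 lower. Sertoli markers were present in the vehicle pool, with 3 of 5 genes above background on all 8 arrays, and 1 of 6 Leydig markers was. Of 3 germ cell markers on the array, Kit and Pou5f1 were never above background in the pool, and Ddx4 was on 2 of 8 arrays. The Leydig marker Lhcgr was never above background there either.

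Cdkn1c, the cyclin-dependent kinase inhibitor p57Kip2 that holds back the cell cycle in many fetal tissues, was the member with the clearest pattern at 1 µM. All 4 of its probes were higher with 1 µM MEHP in both hybridizations, by 1.78-fold to 2.02-fold, and lay between 0.72 and 1.32 in testis 1 at 10 µM. In testes 2 and 3 they lay between −3.33 and 0.29, and none passed the test at 10 µM. The probes are called Cdkn1c-1 (A_42_P799390), Cdkn1c-2 (A_44_P223978), Cdkn1c-3 (A_44_P374618) and Cdkn1c-4 (A_44_P374620). The first pair and the second pair each carry an accession of their own.

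In the 1 µM testis the first and repeat ratios of Cdkn1c-1 were 0.63 and 1.03. Those of Cdkn1c-2 were 0.68 and 1.30. Those of Cdkn1c-3 were 0.90 and 1.02, and those of Cdkn1c-4 were 1.09 and 0.94. All 8 values were above 0.585, the 1.5-fold limit used for a call at 1 µM, and the means of the 4 probes differed by at most 0.19. Of all 13174 probes tested at 1 µM, 4.05% reached that limit upwards in both hybridizations and 2.96% downwards. Among the 11 member probes 4 did so upwards, all of them Cdkn1c, and 0 downwards. With 1 testis this is a difference between RNA samples without a replicate check, and with normexp background correction and loess normalization the 4 means were 0.40 to 0.65 and 1 of the 4 calls was left. The MEHP signals behind it were bright, at 16140 and 16200 for Cdkn1c-1 against 10440 and 7941 in the vehicle channel.

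At 10 µM the ratios of Cdkn1c-1 were 0.57 and 0.87 in testis 1, −0.54 and 0.93 in testis 2, and 0.08 and 0.49 in testis 3. Its testis means of 0.72, 0.19 and 0.29 were all above 0, as were those of 3.78% of the 9913 probes tested at 10 µM, and it was the only such probe among the 8 member probes tested. The mean was 0.40 ± 0.28 (SD, n = 3), or 1.32-fold, with a limma adjusted p of 0.763. Leaving out testis 2 gave 0.50 (limma adjusted p = 0.321).

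The ratios of Cdkn1c-2 at 10 µM were 1.05 and 1.29 in testis 1, −3.34 and −3.32 in testis 2, and −0.47 and 1.01 in testis 3. Only testis 2 was low in both hybridizations. Its MEHP signals there were 1377 and 303.8, neither well above background, against 13950 and 3038 in the vehicle channel, so these ratios are not exact levels. Of the 9913 tested probes, 68 exceeded background clearly in the MEHP channel of both arrays from testis 2. The mean was −0.63 ± 2.38 (SD, n = 3; limma adjusted p = 0.602), and without testis 2 it was 0.72, with the opposite sign and an adjusted p of 0.182. The limma standard error was 0.58 for Cdkn1c-2 (SD 2.38) and 0.56 for Cdkn1c-1 (SD 0.28). These p-values thus rest mostly on the spread shared over probes. Without the filter on dim probes, the unadjusted limma p was 0.66 for Cdkn1c-2 and 0.0959 for Cdkn1c-1, in place of 0.278 and 0.474.

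Cdkn1c-3 gave 1.45 and 1.19 in testis 1, −0.87 and −1.53 in testis 2, and −0.52 and 0.32 in testis 3. Cdkn1c-4 gave 1.39 and 1.13, −0.55 and −0.03, and −0.34 and 0.24. Both were high in testis 1 and at or below 0 in the means of the other testes. Their means were 0.01 ± 1.26 and 0.30 ± 0.84 (SD, n = 3), with limma adjusted p of 0.996 and 0.833. Without testis 2 they were 0.61 and 0.60, with adjusted p of 0.3 and 0.295, and without testis 1 they were −0.65 and −0.17.

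The 4 probes thus read the same gene alike in 3 testes and differently in testis 2. Their testis means spanned 0.19 at 1 µM, 0.60 in testis 1 and 0.39 in testis 3, but 3.52 in testis 2, from −3.33 for Cdkn1c-2 to 0.19 for Cdkn1c-1. Of these probes only Cdkn1c-1 had an MEHP signal well above background in testis 2, on 1 of the 2 arrays. Among all 11 member probes it was also the only one. Relative to the median tested probe of the same testis, Cdkn1c-1 lay 0.63, 1.33 and 0.49 higher in testes 1, 2 and 3, and the limma adjusted p of this relative mean of 0.81 was 0.196.

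**Figure D1:**
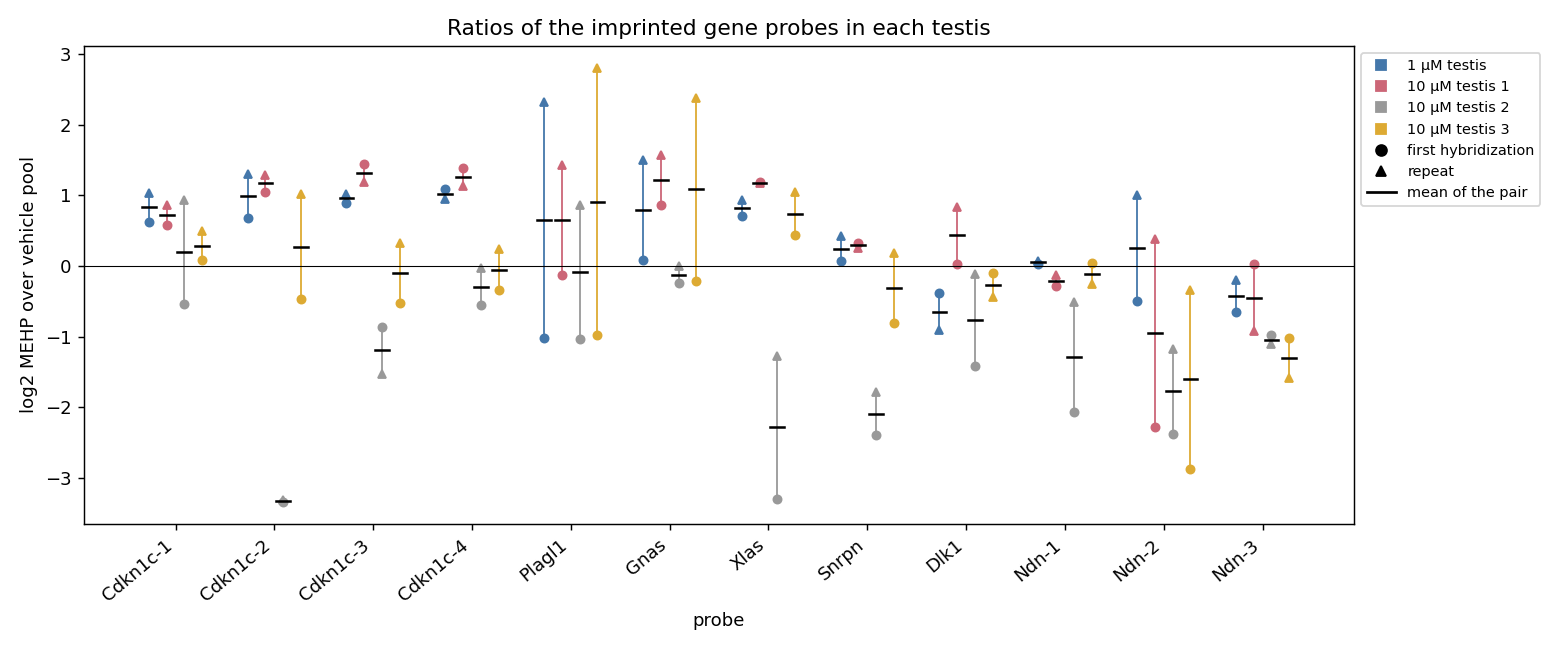
Log2 ratio of MEHP over vehicle (y axis) for 12 probes (x axis), with a circle for the first hybridization, a triangle for the repeat and a bar for their mean, in 1 testis at 1 µM and 3 at 10 µM. The 4 Cdkn1c probes lie above 0 in the 1 µM testis and in testis 1 at 10 µM, while testis 2 reaches −3.33 for Cdkn1c-2, and the Plagl1 circles lie below 0 and its triangles above 0 in all 4 testes.

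**Figure D2:**
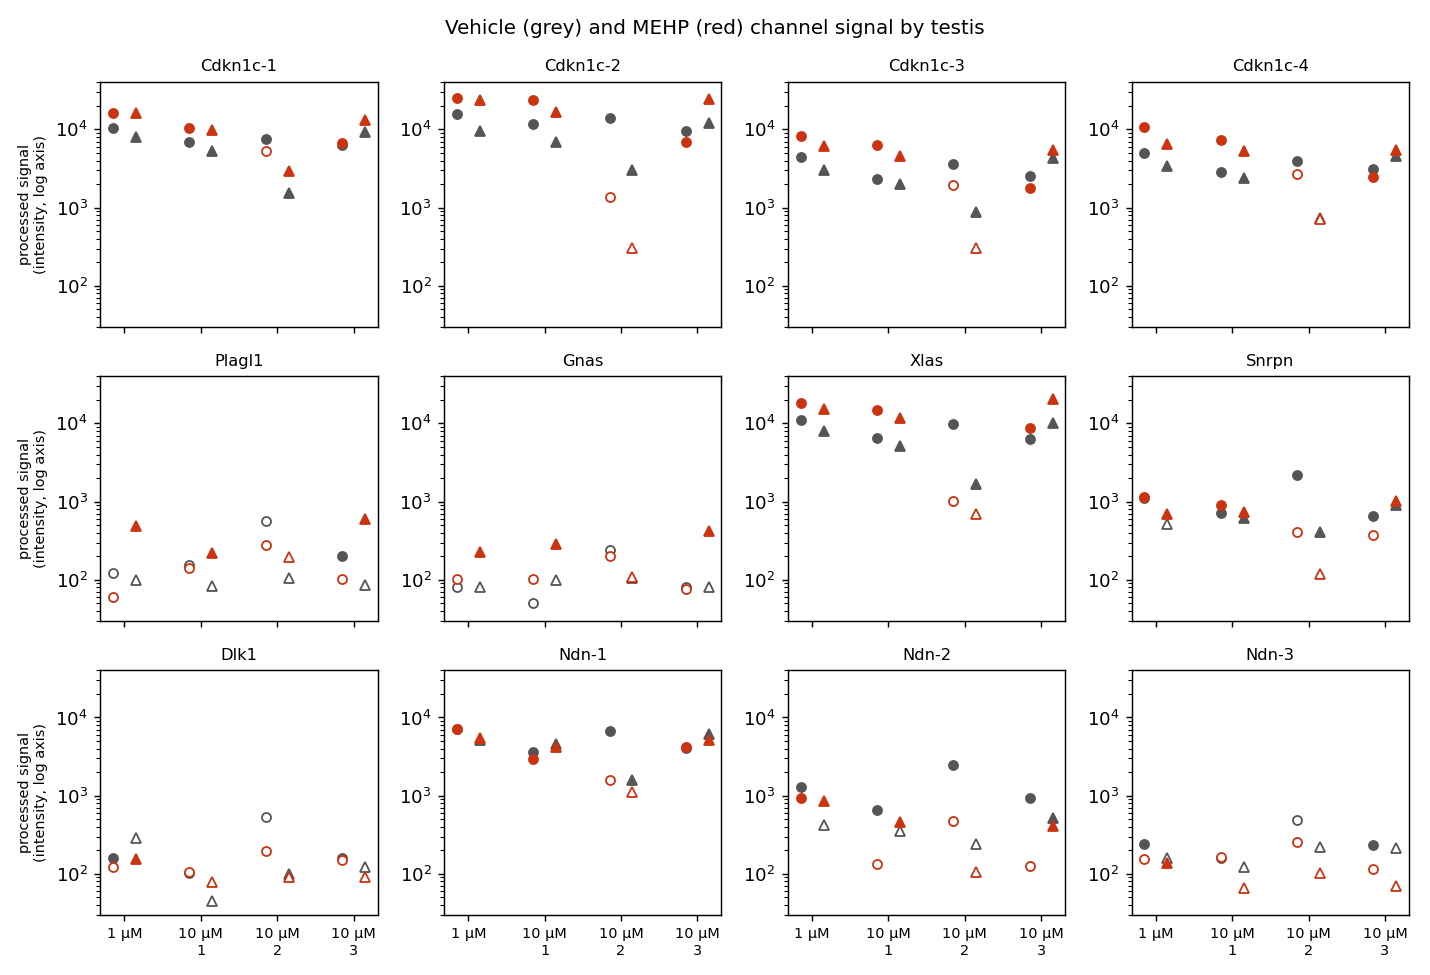
Processed signal (intensity in arbitrary units, log axis) of the vehicle channel in grey and the MEHP channel in red, by testis, with circles for first hybridizations and triangles for repeats, and filled marks where the spot was well above background. The vehicle signal of the 4 Cdkn1c probes was above background on all 8 arrays, whereas in testis 2 at 10 µM the only filled MEHP mark in any panel is the repeat of Cdkn1c-1.

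Plagl1 encodes a zinc finger transcription factor of the imprinted gene network, which is known to activate Cdkn1c and to slow cell growth. Its probe (A_43_P15235) was dim, and its ratio followed the hybridization rather than the testis. The first hybridizations gave −1.02 at 1 µM and −0.12, −1.03 and −0.98 in testes 1, 2 and 3 at 10 µM. The repeats gave 2.32, and 1.43, 0.86 and 2.81. All 4 first hybridizations were below 0 and all 4 repeats above it. The gap of repeat minus first ran from 1.55 to 3.79, against a median absolute gap over the tested probes of 0.45 to 0.94 in the 4 testes. The testis means, each over both hybridizations, were 0.66, −0.08 and 0.91 at 10 µM, averaging 0.49 ± 0.52 (SD, n = 3), with a limma adjusted p of 0.687. From the first hybridizations alone this mean was −0.71, from the repeats alone 1.70, and with normexp and loess 0.12. Leaving out testis 2 gave 0.78 (limma adjusted p = 0.125). The vehicle signal was well above background on 1 of 8 arrays, and at 1 µM on neither, so no fold is given there. Relative to the median tested probe, Plagl1 lay 0.57, 1.05 and 1.11 higher in the 3 testes at 10 µM (mean 0.91, limma adjusted p = 0.147).

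The region before Plagl1 is shown because imprinted start sites are known for dense CG dinucleotides, a feature the choice of genes did not use. The window holds 250 bases before the start of the RefSeq gene and 50 after it, on assembly GRCr8, at chr1:9297214-9297513 on the plus strand. Capitals mark the letters TGCCGC, the core that ZFP57 is known to bind when methylated, or GCGGCA where it lies on the other strand.
Plagl1: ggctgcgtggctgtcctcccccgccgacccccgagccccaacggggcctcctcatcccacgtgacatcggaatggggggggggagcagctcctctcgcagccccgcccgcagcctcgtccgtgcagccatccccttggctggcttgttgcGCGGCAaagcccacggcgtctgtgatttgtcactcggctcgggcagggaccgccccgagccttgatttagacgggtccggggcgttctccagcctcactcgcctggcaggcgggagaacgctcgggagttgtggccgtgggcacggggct
This window holds 29 CG dinucleotides and 1 match to the motif. Of the 9 genes, 8 have such windows, 10 in all since Gnas has 3, and every one lies above the median of 7 CG dinucleotides over all 33469 windows, with a member median of 18. The motif occurs in 4 of the 10 windows, those of Dlk1, Grb10, Plagl1 and Snrpn, and in 11.7% of all windows. It holds a CG itself, and its share among windows of like CG content was not computed. A match is a run of letters and no measured binding site, and no array value here concerns methylation.

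Ndn encodes necdin, a MAGE family protein that restrains cell division. Its 3 probes all had means below 0 at 10 µM, and none passed the test. The probe Ndn-2 (A_44_P308467) gave −2.28 and 0.39 in testis 1, −2.38 and −1.18 in testis 2, and −2.87 and −0.34 in testis 3. The first hybridizations were all below −2, the repeats were higher, and all 3 testis means, −0.95, −1.78 and −1.61, were below 0. The mean was −1.44 ± 0.44 (SD, n = 3), with a limma unadjusted p of 0.0105 and an adjusted p of 0.132. Leaving out testis 2 gave −1.28 (limma adjusted p = 0.0305), and this was then the 1 member probe to pass, among the 17.3% of all tested probes. Its mean was −0.27 with normexp and loess, −0.23 with loess alone, −2.51 in the first hybridizations and −0.38 in the repeats, and at 10 µM the MEHP channel exceeded background clearly on 2 of 6 arrays. At 1 µM the 2 hybridizations gave −0.50 and 1.00, on either side of 0.

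The second Ndn probe, Ndn-1 (A_42_P513294), was measured well above background in the vehicle channel on all 8 arrays and differed little from it in 3 testes. It gave 0.03 and 0.06 at 1 µM. At 10 µM it gave −0.28 and −0.13 in testis 1, −2.07 and −0.51 in testis 2, and 0.04 and −0.25 in testis 3. Apart from testis 2 these values lie between −0.28 and 0.06. The mean was −0.53 ± 0.65 (SD, n = 3; limma adjusted p = 0.659), and −0.16 without testis 2. Relative to the median tested probe it was −0.12. Ndn-3 (A_44_P541131) was below the filter at 10 µM and gave −0.65 and −0.20 at 1 µM. At 10 µM it gave 0.03 and −0.92, −0.98 and −1.11, and −1.02 and −1.59, with the MEHP signal above background on 0 of these 6 arrays. The probes of Ndn thus share the sign of their mean at 10 µM but not its size. Ratios below 0 in all 3 testes were found for 2 of the 8 tested member probes, both of Ndn, and for 36.2% of all tested probes.

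Gnas encodes the stimulatory G protein alpha subunit, which couples receptors such as that for luteinizing hormone to cyclic AMP, and, from another start, the imprinted large variant XLαs. The probe named Gnas (A_44_P378484), printed in 10 spots, was dim, and its vehicle signal was well above background on 0 of 8 arrays. Its ratios were 0.08 and 1.5 at 1 µM, and 0.87 and 1.57, −0.25 and 0.00, and −0.22 and 2.38 in testes 1, 2 and 3 at 10 µM. As in Plagl1, the repeat was above the first hybridization in every testis. No fold is given, because the vehicle side is only bounded, and the probe was not tested at 10 µM.

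A probe named Xlas (A_44_P1027101), which is no member by name, matched Gnas by its accession and was bright. Its ratios were 0.71 and 0.93 at 1 µM, 1.19 and 1.17 in testis 1, −3.30 and −1.28 in testis 2, and 0.44 and 1.04 in testis 3. It was above 0 in all but testis 2, whose MEHP signals of 1013 and 698.7 were not well above background. At 1 µM this probe was called higher, as were 4.05% of all probes tested there, but it is not counted among the member probes. With normexp and loess its mean at 1 µM was 0.48. The mean at 10 µM was −0.12 ± 1.89 (SD, n = 3; limma adjusted p = 0.946). Leaving out testis 2 gave 0.96, or 1.95-fold (limma unadjusted p = 0.0161, adjusted p = 0.0728). After centring of the arrays on their medians, the mean of all 3 testes was 0.33, opposite in sign to the uncentred one. A second probe named Xlas was listed at a ratio of 0 in all 4 testes and was never above background.

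Snrpn encodes SmN, a core protein of the spliceosome. Its probe (A_44_P157690) gave 0.07 and 0.42 at 1 µM, 0.33 and 0.26 in testis 1, −2.39 and −1.79 in testis 2, and −0.81 and 0.18 in testis 3. Only testis 2 was low in both hybridizations. The mean at 10 µM was −0.70 ± 1.24 (SD, n = 3; limma adjusted p = 0.536) and became −0.01 without testis 2. The vehicle signal ran from 411 to 2179 with a median of 692. The window before Snrpn, at chr1:120338870-120339169 on the minus strand of GRCr8, is shown as the only member window with 2 matches to the motif, again in capitals, among 11 CG dinucleotides.
Snrpn: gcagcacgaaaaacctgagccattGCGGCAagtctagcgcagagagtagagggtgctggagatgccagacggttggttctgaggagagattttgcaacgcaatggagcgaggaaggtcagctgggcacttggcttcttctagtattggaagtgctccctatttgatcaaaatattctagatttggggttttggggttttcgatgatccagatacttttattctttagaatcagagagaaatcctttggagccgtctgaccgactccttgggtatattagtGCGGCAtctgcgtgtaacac

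Dlk1 encodes a transmembrane protein with epidermal growth factor repeats that is related to Notch ligands and is found in many immature cells. Its probe (A_42_P754888) was well above background in the vehicle channel on 2 of 8 arrays and in the MEHP channel on 1. The ratios were −0.38 and −0.91 at 1 µM, and 0.03 and 0.84, −1.41 and −0.11, and −0.09 and −0.44 in testes 1, 2 and 3 at 10 µM. Both values at 1 µM were below 0, but only the repeat reached the 1.5-fold limit, and the probe was below the filter at 10 µM.

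**Figure D3:**
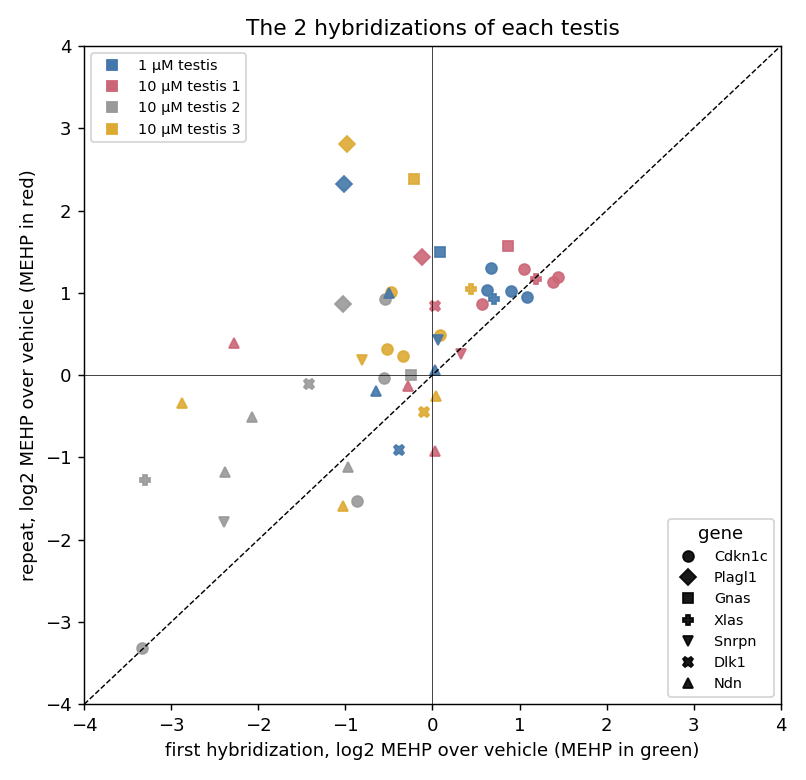
Ratio of the repeat (y axis) against that of the first hybridization (x axis), both log2 MEHP over vehicle, for each probe and testis, with equality as the dashed line. The Cdkn1c points of the 1 µM testis and of testis 1 lie near the line, whereas Plagl1 lies up to 3.79 above it, and of the 44 pairs of the 11 member probes 33 (75%) lie above it, against 71.8% of the pairs of all probes tested at 10 µM.

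As a group the member probes did not stand out at 10 µM. Of 8 tested probes from 4 genes, 0 passed an adjusted p of 0.05 in limma, and 1 had an unadjusted p under 0.05. Over all 9913 tested probes 2.24% passed, 0.373% higher and 1.87% lower, and 1748 had an unadjusted p under 0.05. The median mean ratio was −0.26 over the 8 member probes, of which 4 are Cdkn1c, and −0.42 over all tested probes. With 1 value per gene it was −0.58 from the probe of highest vehicle signal and −0.27 from the median of its probes, so the members' side of the overall median depended on this choice. Leaving out testis 2 turned the values over probes into 0.55 for the members and −0.04 for all. After such centring these were 0.19 and 0.04, and the calls over all probes were then 55 higher and 51 lower in place of 37 and 185. At 1 µM the median was 0.65 over the 11 member probes, which is the value of the dim Plagl1 probe, 0.45 with 1 probe per gene, and 0.02 over all probes tested. With normexp and loess the median over the 11 probes was 0.02, against −0.02 over all.

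**Figure D4:**
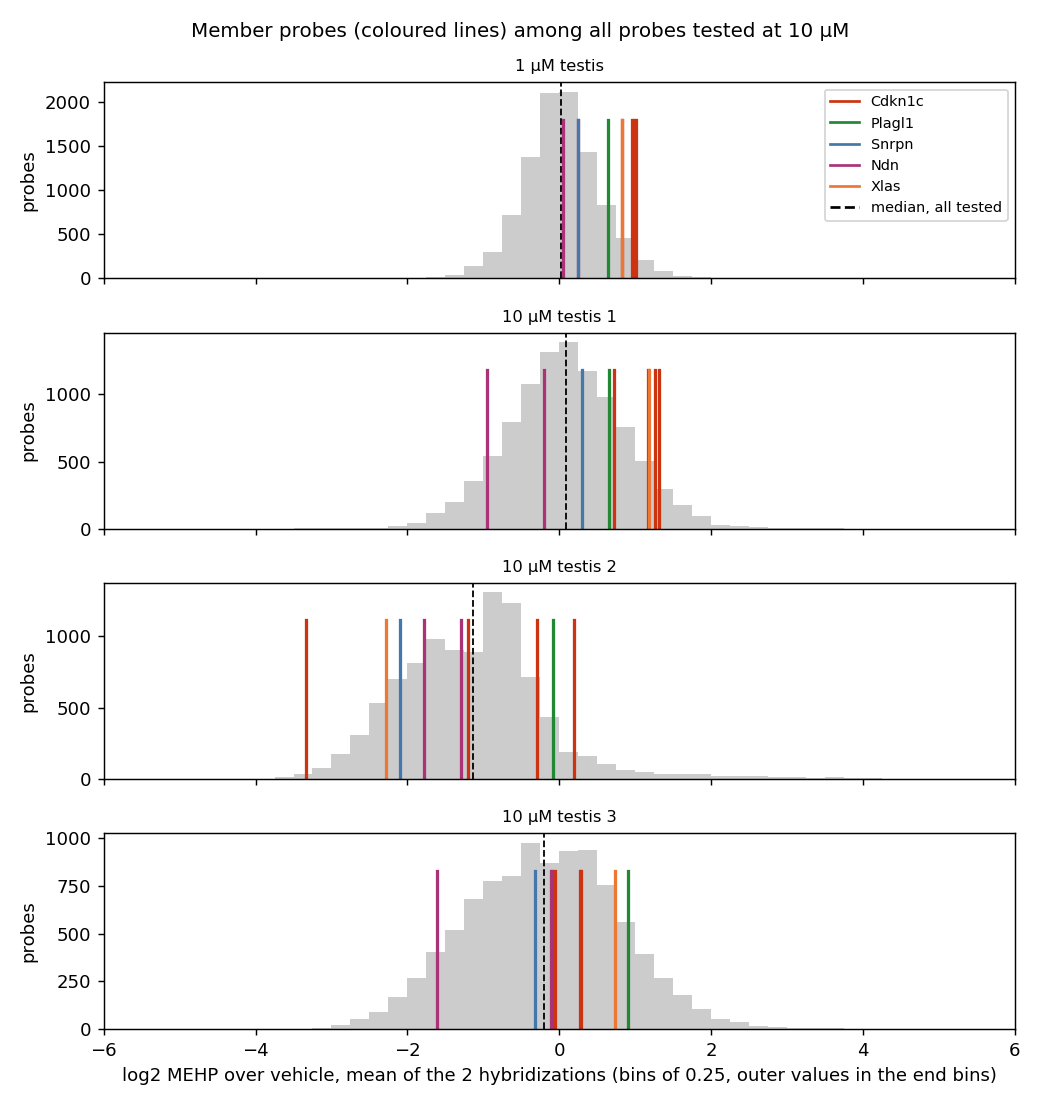
Number of probes (y axis) by mean log2 ratio of MEHP over vehicle (x axis) among the 9913 probes tested at 10 µM, 1 panel per testis, with coloured lines for the tested probes of the members and Xlas and a dashed line for the median. The Cdkn1c lines lie right of the median at 1 µM and in testis 1, and in testis 2 they spread from −3.33 to 0.19 around a median of −1.13, so their side of 0 and of the median differs there.

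The 2 doses could be set against each other only with 1 testis at 1 µM, which the fit assumes to vary like the others. No member probe passed the test between the doses: the limma adjusted p was 0.9995 for each, 0% of 9911 probes passed, and 24 had an unadjusted p under 0.05. The intervals were wide. The difference of 10 µM minus 1 µM was −0.43 for Cdkn1c-1 (95% interval −2.63 to 1.77), and for Ndn-2 it was −1.70 (−3.90 to 0.51). Testis 3 and the 1 µM testis shared a slide, and within that slide the differences of the 4 Cdkn1c probes ran from −1.07 to −0.54. With the slide as a block the differences were the same, since only that slide holds both doses.

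Other genes listed as imprinted and the partners of the members were read from lists of the same kind. Of 41 further genes listed as imprinted, 32 were on the array and 16 probes were tested at 10 µM. Whether each is imprinted in this tissue was not measured. None passed in limma, with 3 below 0 in all testes and a median of −0.38. Of all tested probes 36.2% were below 0 in all testes, and their median was −0.42. The largest differences were those of Dcn, a matrix proteoglycan, at −1.53 ± 0.45 (SD, n = 3; limma adjusted p = 0.111), Cd81, a tetraspanin, at −1.49 ± 0.70 (0.122), and Dhcr7, the last enzyme of cholesterol synthesis, at −0.90 ± 0.24 (0.399). The growth factor Igf2 gave 0.03, −1.81 and −0.56 in testes 1, 2 and 3, and its receptor Igf2r 1.44, −2.46 and 1.47. Of the 16 probes 3 passed when testis 2 was left out: Dcn at −1.34 (limma adjusted p = 0.0251), Cd81 at −1.41 (0.0321) and Igf2r, with the opposite sign, at 1.46 (0.0179), while Dhcr7 at −0.98 (0.0685) and Igf2 at −0.27 (0.621) did not. In that fit 17.3% of all tested probes passed. At 1 µM 1 of 18 tested probes of the list was called, that of Ddc, the aromatic amino acid decarboxylase, at 0.70 and 1.20. Of all probes tested at 1 µM 4.05% were called higher.

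Among the cell cycle genes on which Cdkn1c, Ndn and Plagl1 act, 0 of 11 tested probes passed at 10 µM, and 5 were below 0 in all testes. Of all tested probes 36.2% were below 0 in all testes. One of 2 tested probes of the replication clamp Pcna gave −1.62, −1.05 and −2.26 in testes 1, 2 and 3 (mean −1.64, limma adjusted p = 0.0833). The other, brighter Pcna probe gave −0.56, −2.28 and −0.98 (mean −1.27, limma adjusted p = 0.196), and −0.77 without testis 2 (0.133). The cyclin Ccnd2 gave −0.77, −1.88 and −1.66 (mean −1.44, limma adjusted p = 0.134). Of the 11 probes 4 passed lower when testis 2 was left out, 1 probe of Pcna at −1.94 (limma adjusted p = 0.00901), Ccnd2 at −1.22 (0.04) and both of Cdk4, while the median of the list was 0.29. Of all 9913 tested probes 976 passed lower in that fit. At 1 µM 3 of 12 probes were called lower, beside 2.96% of all probes, for Pcna at −0.65 and −0.77, Cdk4 at −0.62 and −0.64, and E2f1 at −1.24 and −1.09, while second probes of these genes were not. The E2f1 probe had an MEHP signal well above background on 0 of 8 arrays and passed the filter through the vehicle channel alone. Others of the list lay above 0 at 1 µM without a call, such as Cdk2 at 0.32 and 1 probe of Ccnd1 at 0.49.

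In the cyclic AMP arm around Gnas, 1 of 8 tested probes passed, in the lower direction, beside 1.87% of all tested probes. This was a probe of Gnb1, the beta subunit of the G protein, with −1.68, −2.26 and −1.97 in the 3 testes, averaging −1.97 ± 0.29 (SD, n = 3), and its limma adjusted p was 0.0388. The call was lost with the testis as a random block, where the correlation is estimated (adjusted p = 0.0693), and with normexp and loess, where the mean was −0.55 (adjusted p = 0.287). It was also lost after centring (0.0512), with an intensity trend (0.104), in first hybridizations alone (0.119) and with loess alone (0.309). The same held without the filter on dim probes (0.536), without testis 1 (0.266) or testis 3 (0.851), and with a control of its own spread. The call was kept in repeats alone (0.0416) and with outlier spots kept (0.0391). Leaving out testis 2 gave −1.82 (limma adjusted p = 0.00976), and 3 of the 8 probes then passed lower, beside 976 of all 9913 tested probes. The probe was also called lower at 1 µM, with −1.03 and −1.11. The 3 other tested Gnb1 probes gave means of −1.82, −0.86 and −0.06 and did not pass (limma adjusted p of 0.0539 to 0.976). The gamma subunit Gng5 had a mean of −1.44 (limma adjusted p = 0.135). Adenylyl cyclase Adcy6 was called higher at 1 µM, at 0.79 and 0.59. Gng5 without testis 2 had −0.78 (limma adjusted p = 0.133). Of the Sm core partners of Snrpn 0 of 5 probes passed, with a median of −0.83, which was −0.33 without testis 2. The tested probes of the Notch arm around Dlk1 (2) and of the insulin receptor arm around Grb10 (1) included none that passed either.

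The close relatives that are not imprinted gave 0 of 7 tested probes past the threshold at 10 µM in limma, with a median of −0.39. The kinase inhibitor Cdkn1a gave 0.59 at 1 µM and 0.74, −1.37 and −0.53 in testes 1, 2 and 3. The testes came in the same order for Cdkn1c-4 and for the medians over all tested probes. Those medians were 0.03 at 1 µM and 0.09, −1.13 and −0.20 at 10 µM. Cdkn1b was measured by 2 probes, with means of −0.36 and 0.24 at 10 µM. Snrpb, the ubiquitous relative of Snrpn, gave −1.11, −1.66 and −1.76 (mean −1.51, limma adjusted p = 0.115). When testis 2 was left out, Snrpb was the only one of the 7 to pass, at −1.43 (limma adjusted p = 0.0209), and Cdkn1a had 0.10. Maged1, a relative of Ndn, had a mean of −0.99, or −1.22 without testis 2, and Plagl2, a relative of Plagl1, of −0.46, or −0.19. The adaptor Grb7 was called lower at 1 µM, at −0.72 and −0.74.

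The pattern most like that of Cdkn1c-2, measured as the root mean square difference of log2 ratios over the 8 arrays among 7177 named probes, was that of the growth factor Ptn, at 0.35. Its testis means were 0.43 at 1 µM and 1.30, −3.01 and 0.36 at 10 µM. Midn followed at 0.377, the RNA-binding protein Khdrbs1 at 0.394, the splicing factor Sfrs5 at 0.448 and the collagen chaperone Serpinh1 at 0.45, against a median of 1.6 over all. All 5 lay between −3.48 and −2.56 in testis 2, and the 8 points share the control pool, so the likeness is a description. In testis 2 Cdkn1c-2 itself lay at −3.33, below the other Cdkn1c probes, with MEHP signals not well above background. The likeness is thus to this probe rather than to the gene.

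Markers of the cell types of the testis were read in the same way. Of 5 tested Leydig cell probes 1 passed lower at 10 µM, that of Cyp17a1 (limma adjusted p = 0.0394), and their median was −1.31. Of all tested probes 1.87% passed lower. The Cyp17a1 call was lost with the testis as a random block (limma adjusted p = 0.0693) and with normexp and loess (−0.26, adjusted p = 0.375). It was also lost after centring (0.0638), in first hybridizations (0.119) or repeats alone (0.132) and with loess alone (0.316). The same held without the filter on dim probes (0.543), without testis 1 (0.296) or testis 3 (0.851), and with a control of its own spread. The call was kept with an intensity trend (0.0259) and with outlier spots kept (0.0396). Of 4 probes of peritubular and interstitial cells and 7 Sertoli probes 0 passed, with medians of 0.19 and −0.47, beside −0.42 over all tested probes. In the fit without testis 2, 3 Leydig probes passed lower (median −1.53), 2 Sertoli probes lower (−0.41), and 2 peritubular and interstitial probes higher and 1 lower (0.76). Of all 9913 tested probes 739 passed higher and 976 lower in that fit. In the 1 µM testis, where the Cdkn1c probes were called, Star at 1.56 and 2.10, Cyp11a1 at 0.80 and 0.76, and Pdgfra at 0.88 and 1.35 were called higher. Cyp17a1, Insl3, the Sertoli gene Dhh and the epithelial gene Cdh1 were called lower there. The summed Leydig signal was 1010 to 3280 over the 6 MEHP channels at 10 µM, 3930 and 5540 at 1 µM, and 1720 to 9560 in the vehicle channels. The summed Sertoli signal was 5240 to 11500, 12400 and 14200, and 3590 to 19300 in the same order. That of peritubular and interstitial cells was 1030 to 12900, 7140 and 7550, and 1440 to 6880. The ranges at 10 µM include testis 2, where few MEHP spots exceeded background clearly. The part of these shifts in the member ratios was not tested.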

How the data were processed

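Testes were explanted on gestational day 14.5, per the methods. The authors extracted 8 two-colour arrays with Agilent Feature Extraction 9.1 (submitters' processing notes). They deposited for each spot the log10 ratio of red over green after background subtraction and dye normalization, its error-model p-value, processed and raw intensity values per dye, and flags. Their lists of fold changes were not used. Arrays give no counts, so their number limits the precision.

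Control and outlier spots were left out, log10 ratios were converted to log2, first hybridizations were turned in sign, spots of a probe were averaged, and the 2 hybridizations of a testis counted as 1 replicate. A probe was tested where either channel exceeded background clearly on 3 or more of 6 arrays at 10 µM (9913 probes), or on 1 or more of 2 at 1 µM (13174 probes), with a value on each array. For 10 µM, limma 3.58.1 (lmFit, eBayes; R 4.3.3) tested the mean of 3 testes against 0, two-sided, adjusted after Benjamini and Hochberg across the whole tested set, and the doses were compared in a fit of 4 testes. The 1 µM testis was not tested against the pool, and a call there needed 1.5-fold in both hybridizations. The fit was tested on simulated data. Figures used Python 3.11.15 and matplotlib 3.10.9.

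All member probes are named. Of the other lists, those past the threshold, the 3 largest mean differences and the 3 largest calls at 1 µM are named, besides Igf2, Igf2r, Adcy6, Cdk4, Ccnd2, Cdkn1a, Cdkn1b and the cell type markers, which were chosen after their values were seen. Members and lists were chosen with earlier results of these data known. Names were those of the array, and 10735 of 41012 probes matched a RefSeq table (GRCr8), which also gave the promoter windows. The alternatives were other background corrections, centring, filters, single hybridizations, each testis left out, a control with its own spread, an intensity trend, a random testis block and a slide block.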

Additional observations from a re-analysis of the deposited data

Results flagged for a closer look

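The probe Ndn-1 of Ndn lay below 0 in all 3 testes at 10 µM (−0.21, −1.29 and −0.11) and above 0 in both hybridizations of the 1 µM testis (0.03 and 0.06). The difference of 10 µM minus 1 µM was −0.58, with a 95% interval of −2.79 to 1.62, and did not pass the limma test of the difference (unadjusted p = 0.602, adjusted p = 0.9995).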

How the results depend on the processing

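The count of 222 probes past an adjusted p of 0.05 in limma at 10 µM was 0 under normexp background correction with loess, loess without background correction, no filter on dim probes, first hybridizations alone, a control pool with the spread of a testis and the testis as a random block. It was 106 after centring, 6 with both channels above background, 87 with an intensity trend, and 0 to 1715 on leaving out each testis, with 1715 without testis 2. The 0 member probes called became 1 without testis 2 (Ndn-2), 0 to 1 on leaving out each testis, and 0 in the other settings. At 1 µM the count of 924 became 66 with normexp, 104 with loess without background correction (added after seeing the data) and 226 at a 2-fold limit, and the 4 member probes called, all of Cdkn1c, became 1 with normexp, 3 with loess without background correction and 0 at 2-fold. No member probe passed for the dose difference in any setting run. Over all probes this was counted in the main fit only, where 0 of 9911 passed. Signs turned at 10 µM for Cdkn1c-2 (0.29 with normexp, 0.32 with loess, −1.53 to 0.72 on leaving out a testis), Xlas (0.44 with normexp, 0.50 with loess, 0.33 centred, 0.31 in repeats alone, −0.77 to 0.96 on leaving out a testis), Snrpn (0 with loess), Plagl1 (−0.71 in first hybridizations), Cdkn1c-3 (−0.01 in repeats, −0.65 to 0.61 on leaving out a testis) and Cdkn1c-4 (−0.17 to 0.60 on leaving out a testis). The dose difference turned for Cdkn1c-1 (0.06 centred), Plagl1 (0.33 centred, −0.36 to 0.14 on leaving out a testis, 0.26 with slide as a block) and Xlas (−1.59 to 0.14 on leaving out a testis). The cause was not tested. No paired analysis was possible because the doses share fewer than 2 replicate numbers. Of the other values of the 8 tested member probes at 10 µM, 101 kept their direction and side of the threshold. Dim probes (Dlk1, Gnas, Plagl1, Ndn-3) limit what can be read from 4 members.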
